A study of Mus musculus with 18 samples.

Results

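Solute carriers are membrane proteins that move amino acids, metals, ions, nucleosides, sugars, vitamins and metabolites into cells, out of them and between their compartments. The carriers described here are the 148 genes of the deposited table whose symbols have the form Slc, a family number, a and a member number, without Slc2a1, and whose mean over the 18 libraries was at least 100 normalized reads. The table holds 21937 genes, of which 320 have such a symbol. Of these 320, 196 had a mean of at least 10, 97 had a lower mean above 0, and 27 were listed at 0 in every library. The mean level chose the members, so their levels are given as a description, and the differences between times are the results. In 141 of the 148 every library held at least 100 normalized reads, and in the other 7 (Slc7a3, Slc26a10, Slc4a11, Slc9a9, Slc17a6, Slc22a17 and Slc22a4) at least 1 library was lower. Just inside the minimum lay Slc26a10 with a mean of 106, Slc22a4 with 109 and Slc7a3 with 111. Just outside it lay Slc25a29 with 99.5, Slc45a3 with 97.4 and Slc22a18 with 97.2.

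All cells were NIH3T3, an established line of mouse embryonic fibroblasts, and total RNA was sequenced. Every culture had received 100 nM dexamethasone, a synthetic glucocorticoid used to set the clocks of cultured cells in step, for 2 h, and normal medium replaced it at 0 h. RNA was taken at 0, 4, 8, 12, 16, 20, 24, 28 and 32 h, with 2 libraries at each of these 9 times. No untreated cells are among the samples, so the effects of the pulse, of the new medium and of time in culture cannot be told apart. The labels do not say whether the 2 libraries of a time came from separate cultures, so p-values measure the spread between libraries only, which may be technical.

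As background, carriers are grouped into numbered families by the similarity of their sequences, and members of a family often share a kind of cargo. The Slc7 light chains work in the plasma membrane as pairs with the heavy chain Slc3a2, and the Slc38 and Slc1 families carry neutral and acidic amino acids. Slc39 proteins bring zinc and related metals into the cytosol and Slc30 proteins take zinc out of it. Most of the Slc25 family lies in the mitochondrial inner membrane and passes nucleotides, phosphate, metabolites and cofactors; a few members lie in other membranes, and the whole family is counted here as mitochondrial. By their known cargo the 148 carriers were placed in 7 classes, namely 26 of amino acids, 22 of metals, 9 of nucleosides and nucleotide sugars, 34 mitochondrial, 23 of ions, 14 of sugars and carboxylates, and 20 others. The creatine carrier Slc6a8 was counted with the amino acid carriers, and the vesicular glutamate carrier Slc17a6 with the others, so the class counts depend on such choices.

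The libraries held 25.4 to 38.9 M reads (M, in units of 1000000) in genes, and the carriers made up 0.984 to 1.11% of the normalized total. All 12 fibroblast markers examined were in the table, 11 with a mean of at least 10 and Lum below it, and their summed level was 865541 to 1244070 normalized reads. Markers of other cell types were far lower in sum, at 119 to 1122 for 7 epithelial, 174 to 302 for 7 leukocyte, 42.5 to 107.5 for 6 endothelial, 25.2 to 63.7 for 6 adipocyte, 963 to 6886 for 6 skeletal muscle and 570 to 1264 for 6 neural genes. In the leukocyte, endothelial, adipocyte, muscle and neural lists 1 gene each was at 0 in every library. Over the 9 times 8 of the 11 fibroblast markers tested passed the F test described next, as did 2 of 2 epithelial, 2 of 2 muscle, 2 of 3 neural and 1 of 2 leukocyte markers, beside 52.0% of all genes tested. At 12 h against 0 h, 9 fibroblast markers were lower, beside 18.2% of all genes. The fibroblast sum was 889293 to 948114 at 32 h, against 1172160 to 1244070 at 0 h, the muscle sum 1042 to 1062, against 5134 to 6201, and the epithelial sum 164 to 179.6, against 832 to 1122. These 3 sums were lower at 32 h, as was the neural sum at 589 to 613, against 862 to 957. The leukocyte sum was higher, at 268 to 290 against 174 to 224. The endothelial and adipocyte ranges overlapped between these times. The markers' part in the carriers' differences was not tested. In RNA from whole cultures, fewer cells of a kind and less RNA per cell cannot be told apart.

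Over the course, 88 of the 148 carriers differed among the 9 times (limma F test, adjusted p under 0.05), which is 59.5% of them, against a background of 52.0% of the 12393 genes tested. Of the 88, 59 had their highest mean at 0 h, 4 h or 8 h, which is 67.0%, beside 51.6% of the 6439 genes past this test. At 8 h alone 19 carriers peaked, 21.6% beside 7.52% of genes, while 19 peaked at 0 h and 21 at 4 h, 21.6% and 23.9% beside 24.1% and 20.0% of genes. The last time, 32 h, held the lowest mean of 26 carriers, 29.5% beside 15.2% of genes. These times depend on the scaling. With equal library totals 49 carriers had their highest mean at 0 to 8 h, 55.7% beside 41.2% of genes, and 19 had their lowest at 32 h, 21.6% beside 10.9%. By class, 18 of 22 metal, 16 of 23 ion, 16 of 26 amino acid, 5 of 9 nucleoside, 16 of 34 mitochondrial, 7 of 14 sugar and 10 of 20 other carriers passed this test. With the replicate number as a block the counts for the sugar and the other carriers were 12 and 17. For this block the share of all genes is not reported here.

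**Figure D1:**
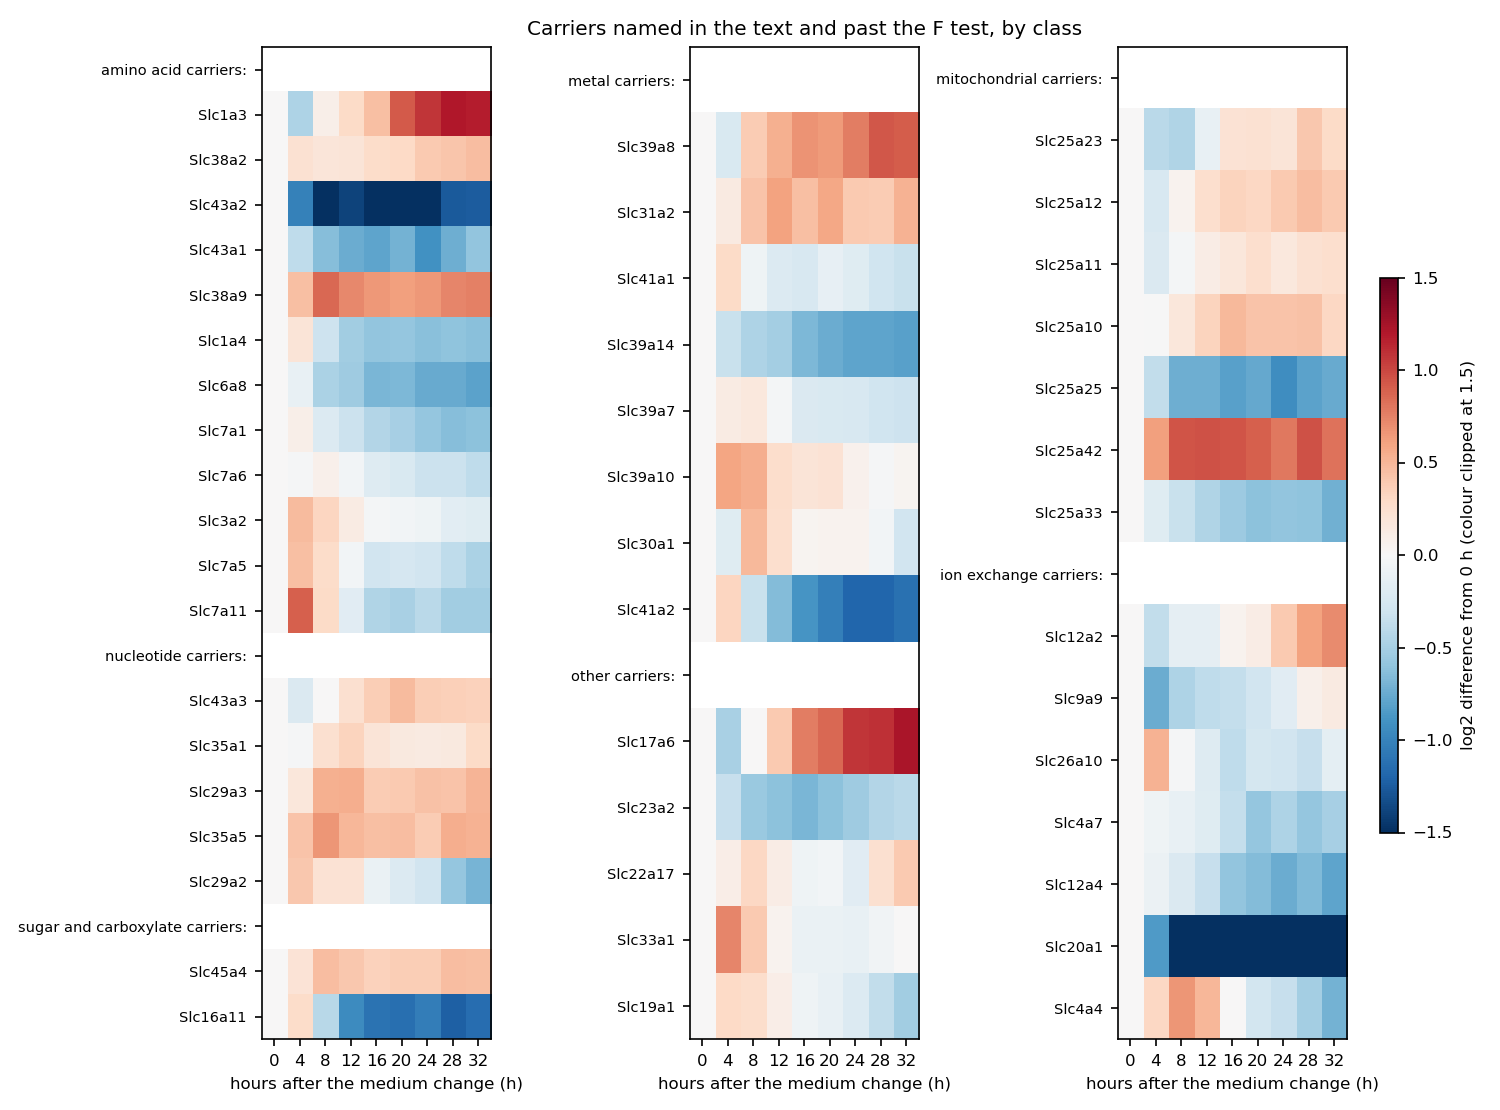
Log2 difference of each time's mean from the 0 h mean (colour, clipped at 1.5) for the 46 carriers that are named in the text and passed the F test, by class, with hours after the medium change on the x axis. Within a class the genes are ordered by the difference between 32 h and 8 h; several amino acid and metal carriers are red at 4 h or 8 h and blue by 32 h, while Slc20a1, Slc43a2 and Slc41a2 are deep blue late.

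At 4 h, 34 carriers differed from 0 h, which is 23.0% of the carriers, near the background of 21.5% of genes. Of these, 22 rose, which is 14.9% of the carriers beside 11.0% of all genes, and 12 fell, which is 8.11% beside 10.5%. Amino acid carriers gave 8 higher and 2 lower, metal carriers 7 and 1, mitochondrial carriers 2 and 3, and nucleoside carriers 1 and 0. Ion carriers gave 2 higher and 4 lower and the others 2 and 2. No sugar or carboxylate carrier passed in limma, edgeR or DESeq2. In limma 2 of the 14 had an unadjusted p under 0.05, beside 4323 of the 12393 genes tested. The median log2 difference was 0.14 for amino acid and 0.13 for metal carriers, beside 0.00 for mitochondrial carriers and for all genes tested. With the replicate number as a block 71 carriers passed (47 higher and 24 lower). Among them were 16 amino acid, 14 mitochondrial, 12 ion, 8 other, 7 sugar and 3 nucleoside carriers. The share of all genes with this block is not reported here, so the larger count is not read as particular to the carriers. Without 0 h replicate 2 the count was 13 and without 4 h replicate 1 it was 18.

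**Figure D2:**
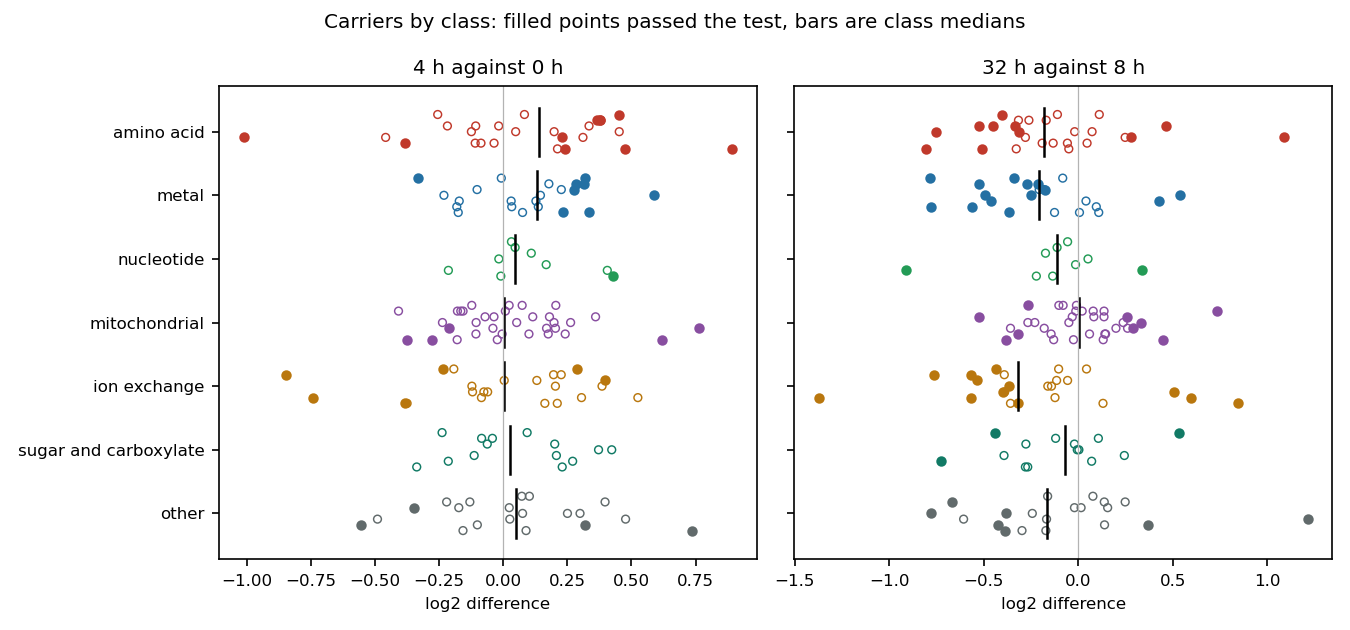
Log2 difference (x axis) of every carrier, by class (rows). The left panel sets 4 h against 0 h and the right panel 32 h against 8 h. Filled points passed the limma test, open points did not, and black bars are class medians, which lie above 0 for amino acid and metal carriers at 4 h and below 0 for them at 32 h.

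The comparison of 32 h with 8 h uses the same phase of a 24 h cycle on successive days and shares no library with 0 h. Here 58 carriers differed (39.2%, beside 27.6% of all genes). Of these, 41 were lower at 32 h, 27.7% of the carriers beside 14.1% of all genes, and 17 were higher, 11.5% beside 13.5%. Metal carriers gave 2 higher and 12 lower, ion carriers 3 and 9, amino acid carriers 3 and 8, and mitochondrial carriers 5 and 4. Nucleoside carriers gave 1 and 1, sugar carriers 1 and 2, and the others 2 and 5. The class medians were log2 -0.32 for ion, -0.21 for metal and -0.18 for amino acid carriers, beside 0.00 for mitochondrial carriers and for all genes. With a replicate block 15 mitochondrial, 11 other and 7 sugar carriers passed, again without the share of all genes beside them. Without 32 h replicate 2, 32 carriers passed, 11 higher and 21 lower. Equal library totals moved the median of all genes by 0.07 and gave 22 higher and 32 lower carriers, with metal carriers at 2 and 9 and mitochondrial carriers at 8 and 2.

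The longer contrasts share the 0 h libraries with each other and with the 4 h contrast. At 12 h against 0 h 53 carriers differed, 35.8% of the carriers, near the 36.2% of all genes. Of these carriers 30 were higher and 23 lower, 20.3% and 15.5% beside 18.1% and 18.2% of all genes. At 32 h against 0 h 69 carriers differed, 46.6% of the carriers beside 40.8% of all genes. Of these carriers 27 were higher and 42 lower, 18.2% and 28.4% beside 20.5% and 20.4% of all genes. The direction of these counts depends on the scaling. Equal library totals raised the median of all genes by 0.18 at 12 h and by 0.21 at 32 h, and the carriers then split 63 higher and 14 lower at 12 h and 62 higher and 21 lower at 32 h. A log2 difference from 0 h at these times is therefore read with that shift. Without 0 h replicate 2 the 12 h count was 32, and without 12 h replicate 1 it was 35. Leaving out 0 h replicate 1 gave 27 lower carriers at 32 h.

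**Figure D3:**
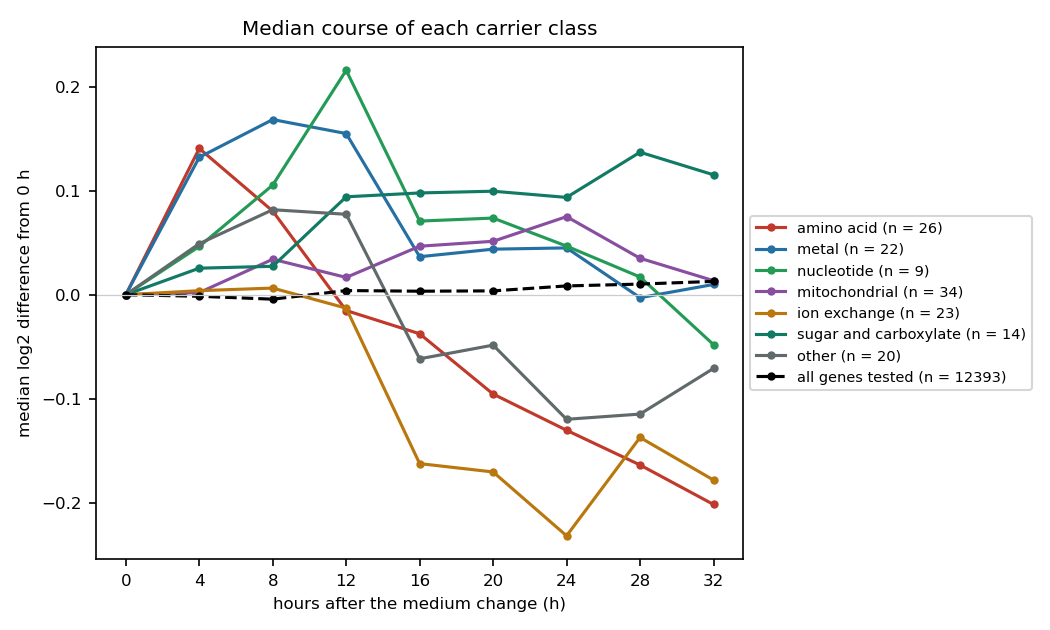
Median log2 difference from 0 h (y axis) over the carriers of each class, by hours after the medium change (x axis), with all genes tested as a dashed line. With the deposited scaling, amino acid carriers stand at 0.14 at 4 h and at -0.20 at 32 h. Metal carriers reach 0.17 at 8 h, and mitochondrial carriers stay between 0.00 and 0.08. Under equal library totals the mitochondrial median was 0.19 at 12 h and 0.23 at 32 h, and the amino acid median 0.01 at 32 h. That scaling raised the median of all genes by 0.18 and 0.21 at these times.

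Among the amino acid carriers, a first group had its highest level at 4 h. Slc7a11, the light chain of the cystine and glutamate exchanger, had 1551 and 1230.5 normalized reads at 4 h, against 791 and 699 at 0 h. Both 4 h libraries lay above both 0 h libraries, 1.86-fold higher (log2 difference 0.89 ± 0.24 SE, limma adjusted p = 0.0178). The call was lost without 4 h replicate 1 (adjusted p = 0.132) and without 0 h replicate 2 (adjusted p = 0.134). By 32 h it had fallen again, with 590.5 and 457 normalized reads at 32 h, against 992 and 837 at 8 h (1.75-fold lower; log2 difference -0.81 ± 0.24 SE, limma adjusted p = 0.0222). That call was lost without 8 h replicate 1 (adjusted p = 0.143) and without 32 h replicate 2 (adjusted p = 0.182). Replicate 1 was above replicate 2 at each of the 9 times.

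The promoter of Slc7a11 is shown because Atf4, the factor induced by amino acid shortage, is known to act on this gene through an amino acid response element, searched for here as TGATGNAA. The 300 bases around each start, 250 before and 50 after, were searched on both strands for those letters, in RefSeq's GRCm38.p6 sequences. The window of Slc7a11 holds the letters at 66 to 59 and, on the other strand, at 47 to 40 bases before the start, printed in capitals (chr3:50443633-50443719, minus strand). The window of Slc1a4, the neutral amino acid carrier, holds them across the start itself (chr11:20332710-20332777, minus strand). The letters occur in 4.51% of the 27025 genes with a window, and in 5 (4.39%) of the 114 carriers that have one. A match is a description of letters, not a site of binding.
Slc7a11: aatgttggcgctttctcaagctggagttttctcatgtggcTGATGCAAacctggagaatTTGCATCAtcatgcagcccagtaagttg
Slc1a4: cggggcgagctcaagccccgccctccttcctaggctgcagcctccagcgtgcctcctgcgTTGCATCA

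Slc3a2, the heavy chain that carries Slc7a11 and Slc7a5 to the surface, had 12058 and 10054 normalized reads at 4 h, against 8549.9 and 7328 at 0 h. The groups did not overlap and the level was 1.39-fold higher (log2 difference 0.48 ± 0.10 SE, limma adjusted p = 0.00543), a call lost without 4 h replicate 1 (adjusted p = 0.0715) and without 0 h replicate 2 (adjusted p = 0.0868). At 32 h it had 7069 and 6865 normalized reads, against 10502 and 9352 at 8 h (log2 difference -0.51 ± 0.10 SE, limma adjusted p = 0.00282). Slc7a5, the light chain for large neutral amino acids, had 16264 and 12601 normalized reads at 4 h, against 11133 and 9832 at 0 h. Its 4 h libraries also lay above those of 0 h, but the difference did not pass (log2 difference 0.45 ± 0.16 SE, limma adjusted p = 0.0592). It passed under 7 of the 29 alternatives, among them a replicate block (adjusted p = 6.76e-06), DESeq2 (adjusted p = 0.0219) and the fit without 4 h replicate 2 (adjusted p = 0.0339). It was 1.69-fold lower at 32 h than at 8 h, with 8033 and 7059 normalized reads at 32 h, against 13687 and 11784 at 8 h (log2 difference -0.75 ± 0.16 SE, limma adjusted p = 0.00378). The 3 partners shared the order of their means, with 4 h highest, 8 h next and 28 h or 32 h lowest.

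Other plasma membrane amino acid carriers were lower on the second day. Slc7a6, a light chain that exchanges cationic for neutral amino acids, had 2937 and 3045 normalized reads at 32 h, against 4073 and 4108 at 8 h (log2 difference -0.45 ± 0.05 SE, limma adjusted p = 3.53e-05). Slc7a1, the main cationic amino acid carrier, had 5428 and 5088 normalized reads at 32 h, against 7192 and 6742 at 8 h, without overlap (log2 difference -0.41 ± 0.10 SE, limma adjusted p = 0.00935), and the call was lost without 8 h replicate 1 (adjusted p = 0.0744) and without 32 h replicate 2 (adjusted p = 0.084). Of the 6 Slc7 members 4 were lower at 32 h than at 8 h and none was higher, beside 14.1% and 13.5% of all genes, also under equal totals and quantile normalization. Slc1a4 stood at 3419 and 3232 normalized reads at 32 h, against 4163 and 4109 at 8 h (log2 difference -0.32 ± 0.07 SE, limma adjusted p = 0.00691), a call lost without 32 h replicate 2 (adjusted p = 0.0734). Against 0 h, where it had 4965 and 5278, it was 1.54-fold lower at 32 h (log2 difference -0.62 ± 0.07 SE, limma adjusted p = 1.55e-05).

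A second group, Slc43a2 and Slc43a1, was lower by 4 h and stayed below 0 h. Slc43a2, a carrier of large neutral amino acids that works without sodium, had 281 and 273 normalized reads at 4 h, against 542 and 578 at 0 h, which is 2.02-fold lower (log2 difference -1.01 ± 0.14 SE, limma adjusted p = 0.000286). It was the only carrier lower by more than 2-fold at 4 h, and no alternative tried ended the call. From 8 h to 28 h its libraries lay between 168 and 243, and at 32 h it had 260.4 and 212 normalized reads, all below both 0 h libraries. Slc43a1, its close relative, had 452 and 440.2 normalized reads at 4 h, against 579.8 and 584 at 0 h (log2 difference -0.38 ± 0.08 SE, limma adjusted p = 0.00569), and 296 and 324 at 24 h. Slc6a8, the creatine carrier, was lower at the later times. It had 4619 and 4549 normalized reads at 0 h, 4240.5 and 4269 at 4 h, 3366 and 3256 at 8 h, 2906 and 2816 at 16 h and 2624 and 2617 at 32 h, and the libraries of 32 h lay below those of 8 h (log2 difference -0.34 ± 0.06 SE, limma adjusted p = 0.000968).

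A further group was higher late. Slc38a2, a sodium-coupled carrier of small neutral amino acids and the carrier with the most reads, had 30494 and 32447 normalized reads at 32 h, against 22321 and 23353 at 0 h (log2 difference 0.46 ± 0.06 SE, limma adjusted p = 1.72e-05). It was also above 8 h, when it had 25023 and 26854 (log2 difference 0.28 ± 0.06 SE, limma adjusted p = 0.0026), and none of the alternatives ended either call. Of the 7 Slc38 members 4 were higher than 0 h at 4 h and none was lower, beside 11.0% and 10.5% of all genes, and each scaling gave the same count. All 4 calls were lost without 4 h replicate 1 (adjusted p from 0.0817 to 0.262), 3 without 0 h replicate 1 (0.0524 to 0.123) and 3 without 0 h replicate 2 (0.0716 to 0.0889). Slc38a9, a lysosomal carrier that reports arginine to the growth regulator mTORC1, had 319.8 and 316 normalized reads at 12 h, against 191 and 194 at 0 h, 1.65-fold higher (log2 difference 0.72 ± 0.12 SE, limma adjusted p = 0.000295), and held 330.0 and 318 at 32 h (log2 difference 0.75 ± 0.12 SE, limma adjusted p = 0.000169). Slc1a3, a glutamate carrier best known from astrocytes, had 1346 and 1859 normalized reads at 32 h, against 592 and 938 at 8 h. The lower 32 h library lay above the higher 8 h library, 2.12-fold higher (log2 difference 1.09 ± 0.31 SE, limma adjusted p = 0.0187). Replicate 2 was above replicate 1 at all 9 times, and the call was lost without 8 h replicate 1 (adjusted p = 0.181) and without 32 h replicate 2 (adjusted p = 0.161). Slc38a4 and Slc38a1, both among the 10 carriers with the highest means, gave log2 differences of 0.07 and -0.05 at 32 h against 8 h, with limma adjusted p of 0.625 and 0.588.

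**Figure D4:**
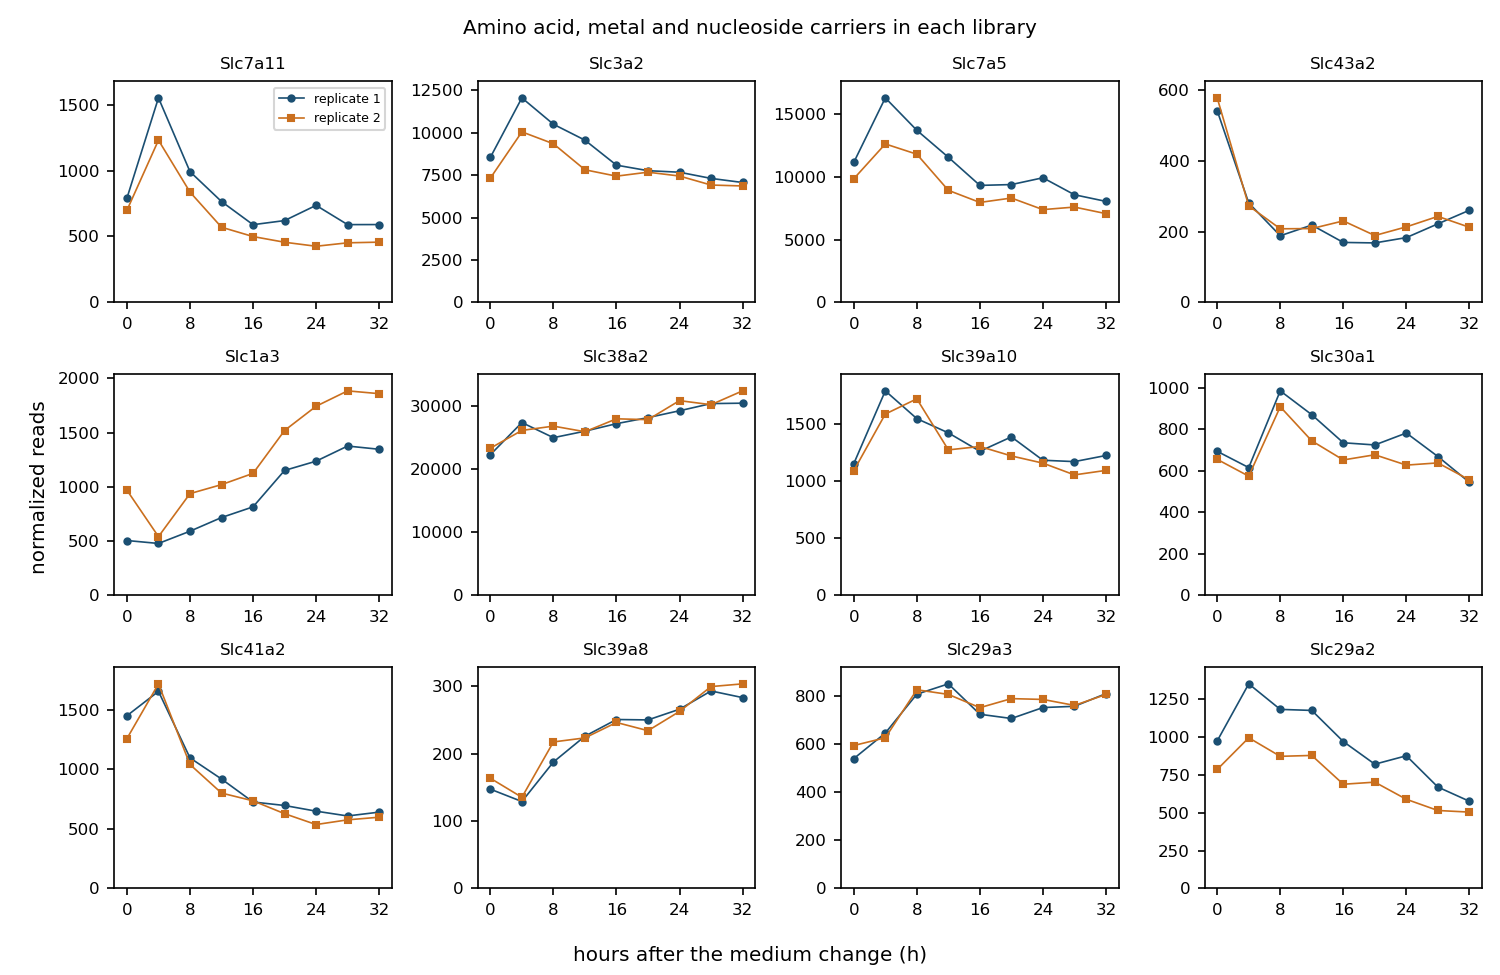
Normalized reads (y axis, from 0) of 12 amino acid, metal and nucleoside carriers in each of the 18 libraries, by hours after the medium change (x axis), with replicate 1 as circles and replicate 2 as squares. Slc7a11, Slc3a2 and Slc7a5 peak at 4 h in both replicates, Slc30a1 peaks at 8 h, and Slc1a3 and Slc39a8 climb from 4 h on.

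More metal carriers rose than fell at 4 h, and more were lower than higher at 32 h against 8 h. Slc39a10, a zinc importer of the plasma membrane, had 1787 and 1584 normalized reads at 4 h, against 1151 and 1090.2 at 0 h. It was 1.5-fold higher at 4 h (log2 difference 0.59 ± 0.09 SE, limma adjusted p = 0.000611), had 1544 and 1717 at 8 h, and fell to 1222 and 1092 at 32 h, against those 8 h values (log2 difference -0.49 ± 0.09 SE, limma adjusted p = 0.00157). None of the alternatives ended these 2 calls. Slc39a7, which releases zinc from the endoplasmic reticulum, had 5752 and 6108 normalized reads at 32 h, against 8350.3 and 8014 at 8 h (log2 difference -0.46 ± 0.07 SE, limma adjusted p = 0.000281). Of the 10 Slc39 members 6 were lower and 1 higher at 32 h than at 8 h, beside 14.1% and 13.5% of all genes, and under equal totals 5 were lower and 1 higher.

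Slc39a8, an importer of zinc and manganese, was the Slc39 member called higher at 32 h than at 0 h and at 8 h. It had 147 and 163 normalized reads at 0 h, 129 and 135 at 4 h, 187 and 217 at 8 h, 251 and 246 at 16 h, 266 and 262 at 24 h and 283 and 303 at 32 h. Both 32 h libraries were above both 8 h libraries (log2 difference 0.54 ± 0.10 SE, limma adjusted p = 0.00148) and 1.88-fold higher than those of 0 h (log2 difference 0.91 ± 0.10 SE, limma adjusted p = 5.94e-06). Slc39a14, its closest relative, which also takes up iron, went the other way, with 2708 and 2853 normalized reads at 0 h, 2347 and 2071 at 4 h, 2073 and 1948 at 8 h, 1838 and 1648 at 16 h, 1689 and 1520.3 at 24 h and 1660.5 and 1515 at 32 h. It was 1.75-fold lower at 32 h than at 0 h (log2 difference -0.81 ± 0.09 SE, limma adjusted p = 4.79e-06). At 4 h it was already lower (log2 difference -0.33 ± 0.09 SE, limma adjusted p = 0.0137), a call lost without 0 h replicate 2 (adjusted p = 0.115) and without 4 h replicate 2 (adjusted p = 0.11). At 32 h against 8 h its log2 difference was -0.34 (limma adjusted p = 0.00924), lost without 8 h replicate 1 (adjusted p = 0.0784) and without 32 h replicate 2 (adjusted p = 0.104).

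Slc30a1, which exports zinc across the plasma membrane, peaked at 8 h. Its relatives Slc30a5, Slc30a6 and Slc30a7 also had their highest means at 8 h, with smaller differences from 0 h. Slc30a1 was among the 6 metal carriers past the F test whose highest mean was at 8 h, beside 7.52% of genes past it. It had 694 and 655 normalized reads at 0 h, 615 and 574 at 4 h, 985 and 908 at 8 h, 869.9 and 744 at 12 h, 782 and 627 at 24 h and 544 and 556 at 32 h, and the 8 h libraries lay above all others. At 32 h it was 1.72-fold lower than at 8 h (log2 difference -0.78 ± 0.11 SE, limma adjusted p = 0.000172), under every alternative. Of the 6 Slc30 members 3 were lower and 1 higher in that comparison, beside the same 14.1% and 13.5%, and under equal totals 2 were lower and 1 higher.
Slc30a1 is known as a target of the zinc-sensing factor Mtf1, which binds elements of the forms TGCACNC and TGCGCNC, and its promoter is shown for that reason. The window holds such letters at 43 to 37 bases before the start, on the minus strand, in capitals in the stretch printed here (chr1:191906718-191906764, plus strand), and again at 31 to 37 bases after it.
Slc30a1: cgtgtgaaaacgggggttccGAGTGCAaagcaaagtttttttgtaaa
Of the 19 metal carriers with a window 11 hold these letters, 57.9%, beside 40.4% of the 114 carriers and 28.2% of the 27025 genes. The letters are short and rich in G and C, and neither base composition nor expression level was matched. In 10 sugar carriers with a window 6 hold them, and 2 of 20 amino acid carriers do.

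Slc41a2, a magnesium carrier, gave the smallest F test p among the metal carriers. It had 1449.5 and 1258 normalized reads at 0 h, 1654 and 1717 at 4 h, 1096 and 1040.3 at 8 h, 918 and 800.4 at 12 h, 696 and 627 at 20 h and 640.3 and 598 at 32 h. Its 4 h libraries were above those of 0 h (log2 difference 0.32 ± 0.10 SE, limma adjusted p = 0.0357), a call lost without a variance trend (adjusted p = 0.0513), without 4 h replicate 1 (adjusted p = 0.0967), without 0 h replicate 2 (adjusted p = 0.313) and without 4 h replicate 2 (adjusted p = 0.131). At 32 h it was 1.72-fold lower than at 8 h (log2 difference -0.79 ± 0.10 SE, limma adjusted p = 0.000107) and 2.18-fold lower than at 0 h (log2 difference -1.12 ± 0.10 SE, limma adjusted p = 9.69e-07). Slc41a1, which exchanges sodium for magnesium at the plasma membrane, was also lower, with 905 and 859 normalized reads at 32 h, against 1058 and 1067 at 8 h (log2 difference -0.27 ± 0.08 SE, limma adjusted p = 0.0163), lost with equal library totals (adjusted p = 0.0653), without 8 h replicate 1 (adjusted p = 0.0713), without 8 h replicate 2 (adjusted p = 0.0638) and without 32 h replicate 2 (adjusted p = 0.13). Slc31a2, an endosomal copper carrier, was instead higher, with 338 and 319 normalized reads at 12 h, against 217 and 216 at 0 h (log2 difference 0.60 ± 0.14 SE, limma adjusted p = 0.00327).

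The nucleoside carriers differed among themselves. Slc29a3, the lysosomal member of the equilibrative nucleoside carriers, had 851 and 807 normalized reads at 12 h, against 540.1 and 594 at 0 h, 1.46-fold higher (log2 difference 0.55 ± 0.07 SE, limma adjusted p = 4.87e-05), and kept 811 and 807 at 32 h (log2 difference 0.51 ± 0.07 SE, limma adjusted p = 6.43e-05). Slc29a2, a plasma membrane member, had 576 and 505 normalized reads at 32 h, against 1184 and 874 at 8 h. Here both 32 h libraries were lower, 1.88-fold lower (log2 difference -0.91 ± 0.23 SE, limma adjusted p = 0.0107), but replicate 1 was above replicate 2 at all 9 times and the call was lost without 8 h replicate 1 (adjusted p = 0.112) and without 32 h replicate 2 (adjusted p = 0.0869). Slc43a3, a carrier of purine nucleobases, had 1131 and 1126 normalized reads at 0 h, 1039.8 and 910.0 at 4 h, 1167 and 1098 at 8 h, 1518 and 1613 at 20 h and 1418 and 1442 at 32 h, and was higher at 32 h than at 8 h (log2 difference 0.34 ± 0.07 SE, limma adjusted p = 0.00403).

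Of the Golgi members, Slc35a1, the carrier of CMP-sialic acid, had 1062 and 1028 normalized reads at 12 h, against 820.0 and 843 at 0 h (log2 difference 0.33 ± 0.07 SE, limma adjusted p = 0.00224). Slc35a5, a relative with a less settled cargo, had 389 and 393 normalized reads at 32 h, against 258 and 287 at 0 h (log2 difference 0.52 ± 0.11 SE, limma adjusted p = 0.0012). At 12 h against 0 h 4 of the 9 nucleoside carriers were higher and none was lower, beside 18.1% and 18.2% of all genes. At 32 h against 0 h 4 were higher and 1 was lower, beside 20.5% and 20.4%. That 1 was Slc29a2, whose 32 h call against 0 h was lost with equal library totals (adjusted p = 0.0993), without a variance trend (adjusted p = 0.0519), without 0 h replicate 1 (adjusted p = 0.172), without 32 h replicate 1 (adjusted p = 0.0567) and without 32 h replicate 2 (adjusted p = 0.143). The class is small, and its share past the F test, 55.6%, was near the background of 52.0%.

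The mitochondrial carriers were the class with the smallest share past the F test, 47.1%, below the 52.0% of all genes. The 3 with the highest means, which serve the making and export of ATP, gave no call among the times in the main limma fit. Some of the 29 alternatives gave calls. Slc25a3 passed under 2 at 32 h against 0 h, under 1 at 12 h against 0 h and under 1 at 32 h against 8 h. Slc25a4 passed under 2 at 4 h against 0 h and under 1 at 12 h against 0 h, and Slc25a5 under 1 at 12 h against 0 h. Slc25a3, the phosphate carrier, had 21386 and 21066 normalized reads at 32 h, against 20603 and 19526 at 8 h, without overlap but with a log2 difference of only 0.08 that did not pass (limma adjusted p = 0.338). Slc25a4, an ADP and ATP exchanger, had 14122 and 15119.7 normalized reads at 32 h, against 13623 and 14059 at 8 h (log2 0.08, limma adjusted p = 0.395). Slc25a5, its close relative, had 8321 and 8657 normalized reads at 32 h, against 8238 and 8914 at 8 h, and these libraries overlapped (log2 -0.01, limma adjusted p = 0.897). How reads shared by close copies such as Slc25a4 and Slc25a5 and their pseudogenes were counted is not given in the sources used here, so these values are uncertain.

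The 16 mitochondrial carriers past the F test include Slc25a25, Slc25a23 and Slc25a33. Slc25a25, a calcium-regulated carrier of ATP-magnesium and phosphate, had 647 and 691 normalized reads at 4 h, against 924 and 814 at 0 h (log2 difference -0.37 ± 0.08 SE, limma adjusted p = 0.00481). It was lower still at 8 h with 545 and 500.0 and had 520.0 and 506 at 32 h, 1.69-fold lower than at 0 h (log2 difference -0.76 ± 0.08 SE, limma adjusted p = 4.79e-06). Slc25a23, of the same subfamily, instead had 209.7 and 247 normalized reads at 32 h, against 138 and 134 at 8 h, 1.66-fold higher (log2 difference 0.73 ± 0.16 SE, limma adjusted p = 0.00449), a call lost without 32 h replicate 2 (adjusted p = 0.0598). Slc25a33, a carrier of pyrimidine nucleotides, had 692 and 693 normalized reads at 0 h, 619 and 604 at 4 h, 559.7 and 539 at 8 h, 478 and 468 at 16 h and 431 and 412 at 32 h and was lower at 32 h than at 8 h (log2 difference -0.38 ± 0.08 SE, limma adjusted p = 0.00443).

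Slc25a42, which carries coenzyme A, had 263 and 180.4 normalized reads at 12 h, against 113 and 111 at 0 h (log2 difference 0.95 ± 0.18 SE, limma adjusted p = 0.000823). Its 4 h values of 198 and 151 were above those of 0 h (log2 difference 0.62 ± 0.18 SE, limma adjusted p = 0.0241), a call lost without 0 h replicate 1 (adjusted p = 0.0631), without 4 h replicate 1 (adjusted p = 0.209) and without 0 h replicate 2 (adjusted p = 0.125).

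Slc25a11, the oxoglutarate and malate carrier, had 2704 and 2784 normalized reads at 32 h, against 2193 and 2295 at 8 h (log2 difference 0.29 ± 0.05 SE, limma adjusted p = 0.00134). At 4 h it was lower than at 0 h (log2 difference -0.21 ± 0.05 SE, limma adjusted p = 0.012), a call lost without 0 h replicate 2 (adjusted p = 0.125) and without 4 h replicate 2 (adjusted p = 0.057). Slc25a12, an aspartate and glutamate exchanger, had 1958 and 2236 normalized reads at 32 h, against 1553 and 1778 at 8 h (log2 difference 0.33 ± 0.09 SE, limma adjusted p = 0.0168), a call lost without 8 h replicate 1 (adjusted p = 0.168) and without 32 h replicate 2 (adjusted p = 0.18). Its log2 difference at 4 h against 0 h was -0.24 and did not pass (limma adjusted p = 0.0844). Slc25a10, the dicarboxylate carrier, had 1422 and 1423 normalized reads at 12 h, against 1115 and 1151 at 0 h (log2 difference 0.33 ± 0.06 SE, limma adjusted p = 0.00102), and at 32 h against 8 h its log2 difference was 0.14 (limma adjusted p = 0.104).

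The carrier with the smallest F test p of all 148 was Slc20a1, a sodium-coupled phosphate importer of the plasma membrane. It had 14436 and 12874 normalized reads at 0 h, 7923 and 7253 at 4 h, 4104 and 3355 at 8 h, 3192 and 2686 at 12 h, 2643 and 2471 at 20 h and 2268 and 2104 at 32 h. Both 4 h libraries lay far below both 0 h libraries, 1.8-fold lower (log2 difference -0.85 ± 0.13 SE, limma adjusted p = 0.000536), and at 32 h the level was 6.24-fold lower than at 0 h (log2 difference -2.64 ± 0.13 SE, limma adjusted p = 3.15e-09). The fall went on after 8 h, with a log2 difference of -0.76 at 32 h against 8 h (limma adjusted p = 0.00086). None of the alternatives tried ended any of its calls. Its promoter (chr2:129198586-129198768, plus strand) is shown because the window holds CACGTG, an E-box read the same on both strands, at 175 to 170 and at 22 to 17 bases before the start, in capitals. The clock factors Clock and Bmal1 and the transcription factor Myc are known to bind such letters. They occur in 8.09% of genes with a window and in 25 (21.9%) of the 114 carriers with one. The carriers were chosen by a minimum level and the genes with a window were not. Base composition was not matched either, and a part of these factors in the carriers' levels was not tested. The element nearer the start adjoins, without overlap, a TGCGCNC match.
Slc20a1: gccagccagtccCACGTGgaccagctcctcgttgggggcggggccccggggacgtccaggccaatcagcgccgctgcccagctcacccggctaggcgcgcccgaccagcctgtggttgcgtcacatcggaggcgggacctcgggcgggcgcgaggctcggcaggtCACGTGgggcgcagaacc

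**Figure D5:**
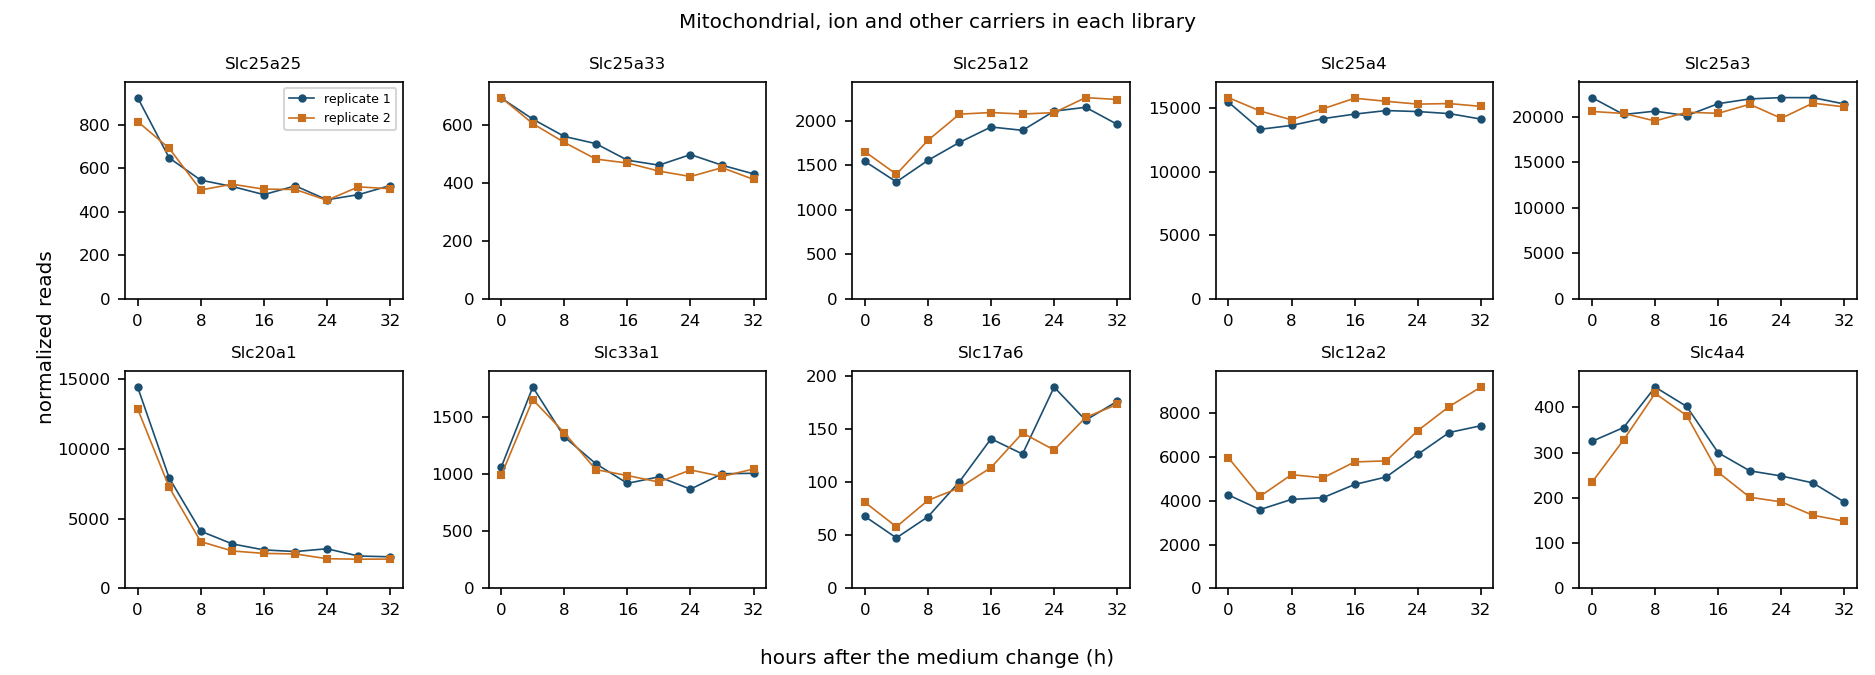
Normalized reads (y axis, from 0) of 10 mitochondrial, ion and other carriers in each of the 18 libraries, by hours after the medium change (x axis), with replicate 1 as circles and replicate 2 as squares. Slc20a1 falls through 12 h in both replicates, Slc33a1 peaks at 4 h, and Slc17a6 and Slc12a2 climb. Slc25a3 and Slc25a4, which passed no test in the main limma fit, vary little.

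Chloride and bicarbonate carriers moved in both directions. Slc12a2, which brings in sodium, potassium and chloride, had 7410.2 and 9170.3 normalized reads at 32 h, against 4055 and 5182 at 8 h, 1.8-fold higher (log2 difference 0.85 ± 0.17 SE, limma adjusted p = 0.003). Slc12a4, which lets potassium and chloride out, instead had 3439 and 3080.4 normalized reads at 32 h, against 5355 and 4354 at 8 h (log2 difference -0.57 ± 0.12 SE, limma adjusted p = 0.00402), a call lost without 8 h replicate 1 (adjusted p = 0.0582) and without 32 h replicate 2 (adjusted p = 0.0515). Slc4a4, a sodium bicarbonate cotransporter, peaked at 8 h and gave the lowest difference of any carrier in this comparison. It had 191 and 149 normalized reads at 32 h, against 445 and 431 at 8 h, 2.59-fold lower (log2 difference -1.37 ± 0.20 SE, limma adjusted p = 0.000294). Slc4a7, a second sodium bicarbonate carrier, had 1963 and 1859 normalized reads at 32 h, against 2573 and 2461 at 8 h (log2 difference -0.40 ± 0.08 SE, limma adjusted p = 0.00363). Slc9a9, an endosomal sodium and proton exchanger, had 89.2 and 90.1 normalized reads at 4 h, against 132 and 172 at 0 h (log2 difference -0.74 ± 0.15 SE, limma adjusted p = 0.00408), a call lost without 0 h replicate 2 (adjusted p = 0.0695).

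Of the remaining carriers, Slc33a1, which moves acetyl-CoA into the endoplasmic reticulum, had 1758 and 1649 normalized reads at 4 h, against 1058 and 987 at 0 h, 1.66-fold higher (log2 difference 0.74 ± 0.08 SE, limma adjusted p = 3.37e-05). It was back at 1088 and 1037 by 12 h, close to 0 h, and no alternative ended the 4 h call. Slc17a6, a vesicular glutamate carrier best known from neurons, had 67.7 and 81 normalized reads at 0 h, 47.5 and 57.9 at 4 h, 67.3 and 82.8 at 8 h, 141 and 114 at 16 h, 189 and 130.1 at 24 h and 176 and 173 at 32 h. It was 2.32-fold higher at 32 h than at 8 h (log2 difference 1.21 ± 0.19 SE, limma adjusted p = 0.000417), the highest ratio of any carrier in that comparison, at a level close to the minimum for membership. Its libraries under 100 normalized reads are those of 0 h, 4 h and 8 h and 1 of 12 h, so it is a member through its later times. The summed neural markers were 589 to 613 normalized reads at 32 h, against 1024 to 1143 at 8 h, and so were lower where Slc17a6 was higher.

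Slc19a1, the reduced folate carrier, had 974 and 907 normalized reads at 32 h, against 1745 and 1498 at 8 h, 1.72-fold lower (log2 difference -0.78 ± 0.12 SE, limma adjusted p = 0.000545). Slc23a2, a sodium-coupled ascorbate carrier, had 2401 and 2339 normalized reads at 4 h, against 3137 and 2896 at 0 h (log2 difference -0.35 ± 0.07 SE, limma adjusted p = 0.00464) and stayed below 0 h to the end, with 2323 and 2242 at 32 h (log2 difference -0.40 ± 0.07 SE, limma adjusted p = 0.000571). Slc16a11, of the monocarboxylate family, had 448 and 444 normalized reads at 32 h, against 1169.5 and 832 at 0 h, 2.21-fold lower (log2 difference -1.14 ± 0.22 SE, limma adjusted p = 0.000843). The sugar carrier relative Slc45a4 had 2022 and 1998 normalized reads at 32 h, against 1490.2 and 1462 at 0 h (log2 difference 0.45 ± 0.08 SE, limma adjusted p = 0.000357).

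A list of 32 regulators and other transport genes, chosen for the pathways around the carriers, had 28 genes in the table, and the other 4 were not analysed here. Of the 28, 20 passed the F test, beside 52.0% of all genes. At 4 h against 0 h 7 were higher and 3 lower, beside 11.0% and 10.5%, and at 32 h against 8 h 4 were higher and 6 lower, beside 13.5% and 14.1%. The zinc-binding metallothioneins Mt2 and Mt1, transcribed under Mtf1 and also under glucocorticoids, had the lowest log2 differences of the list at 12 h. Mt2 had 1295 and 1678 normalized reads at 12 h, against 8529 and 9079.5 at 0 h (log2 difference -2.58 ± 0.18 SE, limma adjusted p = 1.56e-07), and Mt1 had 867 and 985 normalized reads at 12 h, against 3025 and 3754 at 0 h (log2 difference -1.87 ± 0.14 SE, limma adjusted p = 2.76e-07). Ftl1, a chain of the iron store ferritin, had 15121 and 15941 normalized reads at 32 h, against 11177 and 11007 at 8 h (log2 difference 0.49 ± 0.06 SE, limma adjusted p = 5.86e-05). Atp2b1, a calcium pump, had 5122 and 5367 normalized reads at 32 h, against 6421 and 6127 at 8 h (log2 difference -0.26 ± 0.05 SE, limma adjusted p = 0.00298).

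Genes of the response to amino acid shortage were read beside Slc7a11 after their values had been seen. Chac1, which breaks down glutathione, had 1424 and 1202 normalized reads at 4 h, against 639 and 279 at 0 h (log2 difference 1.63 ± 0.27 SE, limma adjusted p = 0.000931). Ddit3, a stress factor, had 1662 and 1322 normalized reads at 4 h, against 492 and 489 at 0 h (log2 difference 1.59 ± 0.13 SE, limma adjusted p = 3.36e-06). Trib3, one of its targets, had 1596 and 1061 normalized reads at 4 h, against 812 and 739 at 0 h (log2 difference 0.75 ± 0.17 SE, limma adjusted p = 0.00766). The factor Atf4 itself had 21678 and 24119 normalized reads at 4 h, against 20339 and 19629.5 at 0 h, a difference that did not pass (log2 difference 0.19 ± 0.08 SE, limma adjusted p = 0.108). For each of these 4 genes both 4 h libraries were above both 0 h libraries, as they were for 29.1% of all genes tested. They are the libraries that also gave the values of Slc7a11. At 32 h against 0 h these genes went different ways. The log2 difference was -0.52 for Slc7a11, -0.40 for Atf4 (limma adjusted p = 0.00143), 0.39 for Chac1 and 0.22 for Trib3. Of these only Atf4 passed. Ddit3 was still higher, with 1031 and 936 normalized reads (limma adjusted p = 3.1e-05). From the same list, Asns had a log2 difference of 0.17 at 4 h (limma adjusted p = 0.0475) and -0.21 at 32 h. Sesn2 had 0.67 and 0.52. A link of these genes to Slc7a11 was not tested.

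No carrier passed the test of a 24 h rhythm (limma F of a cosine and a sine of 24 h, adjusted over 12393 genes), beside a background of 0.371% of genes, or 46. At an unadjusted p under 0.05 there were 19 of the 148 carriers, beside 2107 of the 12393 genes tested. On recovered whole reads edgeR gave 0, beside 0.315% of genes. DESeq2 gave 3, namely Slc22a17, Slc35a1 and Slc48a1, which is 2.03% of the carriers beside 4.30% of genes. Among carriers with a mean of at least 10, 1 passed, the iron exporter Slc40a1 with a mean of 71.7 normalized reads (1.74-fold from trough to peak, fitted peak at 6.77 h, limma adjusted p = 0.0357). A period of 28 h gave 13 carriers, 8.78% beside 11.6% of genes, and a 24 h period with a linear term in time gave 25, 16.9% beside 17.0%.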

How the data were processed

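RNA from 18 libraries of NIH3T3 cells (9 times, 2 libraries each) had been sequenced as single reads, per the labels' protocols. TopHat, HTSeq, DESeq and the mouse build mm9 are named in the submitters' processing notes, without versions or roles. The authors deposited 1 signal value per gene and library, a read count divided by a size factor, called normalized reads here. In every column the values are whole multiples of 1 step, and division by it gave whole reads, the largest distance from a whole number being 0.0061 reads. The libraries then hold 25.4 to 38.9 M reads in genes. Strandedness and the treatment of shared reads are not given in the sources used here, so reads of antisense and near-identical genes cannot be told apart.

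Values were analysed as log2(value + 1) for the 12393 genes with a mean of at least 10, with limma 3.58.1 (R 4.3.3, eBayes with a variance trend) over all 18 libraries, which share 1 estimate of the spread. P-values were adjusted by Benjamini-Hochberg over all genes tested, with a threshold of 0.05, and all tests are two-sided or F tests. Fold changes are 2 to the power of the log2 difference, on the log2(value + 1) scale, which understates changes of low genes. On the recovered reads edgeR 4.0.16 called 2503 genes and DESeq2 1.42.0 called 2404 genes at 4 h against 0 h, beside 2664 by limma. The code was tested on simulated data, which gave all genes the same dispersion and did not pair the libraries, unlike the data. At 4 h against 0 h the code recovered 58% of 1.5-fold and 89% of 2-fold changes, with 17 calls among unchanged genes.

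Same-numbered libraries deviated together (all 36 correlations of deviations from the time means between pairs of times were above 0.1, from 0.230 to 0.502), so the numbers pair the libraries, from the data and not from the labels. A replicate block was an alternative. Replicate 1 libraries hold 31.9 to 38.9 and replicate 2 libraries 25.4 to 32.0 M reads. The members, classes and lists were chosen with earlier results of these data known. Genes named are the 10 highest means, the 6 smallest F p-values per class, the 6 highest and 6 lowest called differences per contrast whose libraries do not overlap, the smallest rhythm p-values, and 4 genes per list; some genes that this rule names are not reported here. Promoters are RefSeq windows of GRCm38.p6, matched by symbol for 114 of 148 carriers, and share no coordinates with the deposited table. The plots used matplotlib 3.10.9 under Python 3.11.15.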

Additional observations from a re-analysis of the deposited data

How the results depend on the processing

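Of the carriers called, 66 of 88 kept the call over the 9 times under all 29 alternatives, 11 of 34 did so at 4 h against 0 h, 23 of 53 at 12 h against 0 h, 38 of 69 at 32 h against 0 h and 28 of 58 at 32 h against 8 h. A replicate block gave 71 carriers at 4 h against 0 h, 47 higher and 24 lower, against 34, 22 and 12 without it. It gave 120 for the F test, 76 for 12 h against 0 h and 88 for 32 h against 0 h. For 32 h against 8 h it gave 83, and for the rhythm 0. The block ended none of the calls. The share of all genes with the block is not reported here, so these counts are not read as particular to the carriers. Leaving out 1 library at a time gave 13 to 40 carriers at 4 h (6 to 26 higher and 6 to 14 lower), 32 to 54 at 12 h (14 to 31 and 16 to 25), 49 to 70 at 32 h against 0 h (21 to 27 and 27 to 44), 32 to 61 at 32 h against 8 h (11 to 17 and 21 to 44), 78 to 95 for the F test and 0 to 0 for the rhythm. The lowest counts were without a 0 h, 4 h, 12 h, or 32 h library, where 1 library stands for a time and is assumed to vary like the others. Equal library totals gave 63 higher and 14 lower at 12 h, and 62 higher and 21 lower at 32 h against 0 h, and by their construction shift every difference from 0 h by the same amount. Under equal totals Slc48a1 at 32 h against 0 h had a log2 difference of 0.0094 in place of -0.20. For the 24 h rhythm, DESeq2 gave 3 carriers, a mean of at least 10 gave 1, a period of 28 h gave 13 and a linear term gave 25; the cause was not tested. The use of equal totals for the times of the highest mean was chosen after seeing the data, and gave 49 of 88 carriers at 0 to 8 h in place of 59. Each time rests on 2 libraries, and 7 carriers had a library under 100 normalized reads.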
